A study of Mus musculus with 12 samples.

Results

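The nuclear genes of the mitochondrial respiratory chain were examined in the mouse cecum after cauterization, a burn of the cecal surface that leads to peritoneal adhesions. Members were taken by gene symbol, as the array names that begin with Nduf, a letter (a, b, c, s or v) and a number, with Uqcr, with Cox4 to Cox8 or with Atp5, together with Sdha, Sdhb, Sdhc and Sdhd. The rule used no measured value. It found 84 genes on 129 probes, out of 37074 genes on 56605 probes. Of the 84 genes, 35 encode subunits of complex I, 4 of complex II, 8 of complex III, 17 of complex IV and 15 of complex V. The remaining 5, Ndufa4l2, Cox7a2l, Atp5s, Atp5sl and the pseudogene Atp5c1-ps, share a name with the chain but are not counted here as subunits. Ndufa4 was placed in complex IV, where it is now known to belong. Cox5b was not analysed here.

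The 12 arrays held RNA of whole cecum from C57BL/6 mice labelled as male, with 3 arrays per group. Sham mice were sampled at 0 h after a sham operation, and the other groups had the cecum cauterized with bipolar forceps and were sampled 3, 12 or 72 h later. The cauterized mice were anesthetized and opened by a midline incision. What the sham operation consisted of and the age of the mice were not given in the sources used here. Because sham tissue was taken at 0 h alone, cauterization cannot be told apart from the operation and the time since it. Expression was measured on 1-colour Agilent arrays, and a level below is log2 of the intensity of a gene's brightest probe minus the 75th percentile of the array.

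Electrons from NADH enter the respiratory chain at complex I, and those from succinate enter at complex II. Both pass through ubiquinone to complex III and then through cytochrome c to complex IV, which reduces oxygen. Complexes I, III and IV move protons across the inner mitochondrial membrane, and complex V, the ATP synthase, lets them return to make ATP. Most subunits are encoded in the nucleus and a few in mitochondrial DNA. In the large bowel, the epithelium burns butyrate from the lumen and the muscle coat contracts, and both depend on this chain. Several complex IV subunits exist in a common form and in a second form of muscle, fat or other tissues.

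All 12 listed epithelial markers were well above background on all 12 arrays. Xist, which is transcribed from the inactive X chromosome of females, was well above background on all 12 arrays. The Y-linked genes Ddx3y and Eif2s3y were so on 0 arrays, Uty was so on 1 array, and 1 of the probes of Kdm5d was so on 12, which goes against the label male. Correlations between replicate arrays were between 0.985 and 0.992 across probes. The 75th percentile itself lay between 280.1 and 308.3 intensity units in sham, between 263.2 and 278.2 at 3 h, from 316 to 320.4 at 12 h and from 351.1 to 374.5 at 72 h. The arrays lay on 2 slides, with all sham and 3 h arrays and 12 h replicates 1 and 2 on slide 1, and 12 h replicate 3 and all 72 h arrays on slide 2. Of the 84 genes, 83 were well above background on all 12 arrays and Cox8c on 0. In whole tissue, fewer cells of a type and less RNA per cell cannot be told apart.

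The promoters of 5 subunit genes are shown because nuclear genes of the chain are known targets of NRF1 and GABP, and these genes either carried such a motif or had the largest changes described below. Each sequence gives the 250 bases before the start site in RefSeq on GRCm38.p6, written 5′ to 3′ on the strand of the gene, with motif letters in capitals. Sdhb lies at chr4:140961021-140961270 on the plus strand and Atp5k at chr5:108434400-108434649 on the minus strand. Uqcr11 lies at chr10:80406822-80407071 on the minus strand, Cox7a1 at chr7:30183921-30184170 on the plus strand and Cox8b at chr7:140900447-140900696 on the minus strand.
Sdhb: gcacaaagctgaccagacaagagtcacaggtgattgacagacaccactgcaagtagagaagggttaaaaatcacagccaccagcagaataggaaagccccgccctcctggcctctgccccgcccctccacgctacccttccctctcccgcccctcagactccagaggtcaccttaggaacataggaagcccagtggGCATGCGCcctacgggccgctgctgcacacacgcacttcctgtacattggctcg
Atp5k: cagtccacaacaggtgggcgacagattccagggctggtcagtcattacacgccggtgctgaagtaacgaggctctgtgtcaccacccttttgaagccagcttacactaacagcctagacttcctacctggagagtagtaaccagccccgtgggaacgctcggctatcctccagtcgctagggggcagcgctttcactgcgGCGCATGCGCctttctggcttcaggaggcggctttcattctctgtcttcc
Uqcr11: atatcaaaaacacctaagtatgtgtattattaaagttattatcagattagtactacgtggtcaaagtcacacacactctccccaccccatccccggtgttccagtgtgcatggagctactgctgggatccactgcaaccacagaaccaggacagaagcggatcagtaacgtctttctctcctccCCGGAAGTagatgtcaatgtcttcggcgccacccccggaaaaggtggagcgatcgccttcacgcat
Cox7a1: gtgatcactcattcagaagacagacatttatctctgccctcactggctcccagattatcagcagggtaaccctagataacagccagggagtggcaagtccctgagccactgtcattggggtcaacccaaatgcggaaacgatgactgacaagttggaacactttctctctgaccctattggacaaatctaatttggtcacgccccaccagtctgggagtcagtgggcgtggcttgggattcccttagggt
Cox8b: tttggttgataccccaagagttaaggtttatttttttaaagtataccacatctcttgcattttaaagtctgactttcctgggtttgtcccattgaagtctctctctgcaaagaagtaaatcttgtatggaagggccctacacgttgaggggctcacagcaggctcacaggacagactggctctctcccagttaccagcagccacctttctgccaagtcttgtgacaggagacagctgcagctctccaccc
The capitals mark the NRF1 core GCATGCGC in Sdhb and in Atp5k, where the motif overlaps its own reverse complement, and the GABP motif CCGGAAGT in Uqcr11. Cox7a1 and Cox8b held none of the 4 motifs searched. Of the 79 subunit genes, 65 had a promoter in the table. On either strand, GCATGCGC stood in 8 of these 65 promoters (12.3%) and in 2.56% of the 27025 promoters of all genes. CCGGAAGT stood in 3 subunit promoters (4.62%) and in 3.23% of all, the YY1 motif AAGATGGC in 1 (1.54%) and in 1.83% of all, and the ERR motif TCAAGGTCA in 1 (1.54%) and in 0.422% of all. These matches are descriptions of letters, and no match says only that the letters are not in the window. The median GC content was 56.0% in subunit promoters and 52.4% in all promoters.

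The chain genes differed from sham in different ways at the 3 times. At 3 h, most stood slightly above sham, with 75 of 84 values positive, beside 20109 of all 37074 genes. The median log2 difference was 0.24, whereas the median over all genes was 0.06. With quantile normalization, however, 42 of 84 lay below sham and the median of the members was 0.00. At 12 h, 80 of 84 were below sham, beside 20748 of all genes, with a median of -0.23 against -0.04 over all genes. At 72 h, 80 of 84 were again below sham, beside 25303 of all genes, and the median was -0.57 against -0.15 over all genes. Per array, the median over the 84 genes was 0.00, 0.04 and -0.05 in sham and 0.30, 0.27 and 0.17 at 3 h, each as a log2 difference from the sham mean. It was -0.25, -0.12 and -0.31 at 12 h and -0.74, -0.46 and -0.48 at 72 h. The 4 groups did not overlap in this measure, and 72 h replicate 1 was the lowest array.

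**Figure D1:**
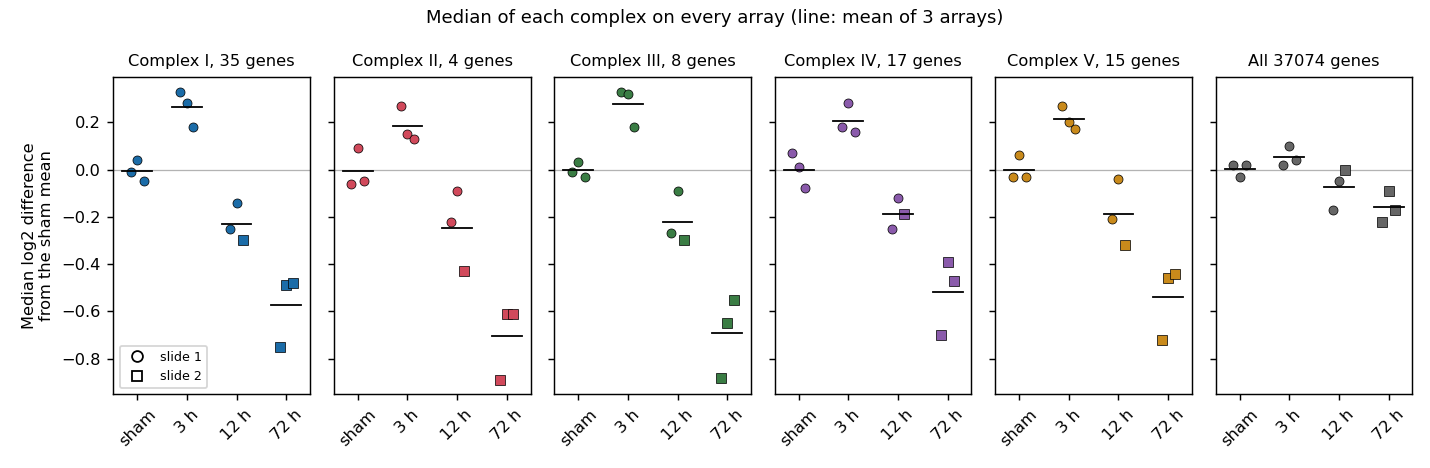
Median over the genes of each complex (and over all genes, right) of the log2 difference from the sham mean, on every array; circles are arrays on slide 1, squares arrays on slide 2, and lines the mean of 3 arrays. All 5 complexes lay above the sham arrays at 3 h on this scaling (the median over the 84 genes was 0.00 with quantile normalization) and lowest at 72 h, where 72 h replicate 1 was at -0.75 for complex I and -0.89 for complex II.

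Most chain genes had fallen by 72 h. With limma, 71 of 84 genes were lower than in sham at an adjusted p below 0.05, and 2, Cox6a2 and Ndufa4l2, were higher, while 11 did not pass. Over all genes, 13.3% passed as lower and 7.82% as higher, and among the 20819 genes well above background on all 12 arrays these shares were 18.9% and 11.3%. Changes were mostly modest, and past 2-fold there were 2 genes lower and 2 higher, with 8.89% of all genes past this threshold. Of the 121 probes of members that were well above background on all 12 arrays, 102 were lower and 2 higher, and in 27 of the 28 genes with more than 1 such probe all probes had negative values.

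The count at 72 h depended on the slide and on scaling. With the slide as a block, the median was -0.46 against -0.23 over all genes, and 79 of 84 genes were below sham. However, the 1 gene that passed as lower was Cox7a1, and 1.66% of all genes passed. On slide 2 alone, the mean at 72 h was below 12 h replicate 3 in 73 of 84 genes, with a median difference of -0.265. The same count was not made over all genes. In the full step from 12 h to 72 h, 22974 of all 37074 genes had negative values. Slide and 72 h are separated through 12 h replicate 3 alone. The 75th percentile of the arrays was 0.32 higher at 72 h than in sham on the log2 scale, and without any scaling the median of the members was -0.24 against 0.17 over all genes. Then 16 members passed as lower, beside 4.24% of all genes. With quantile normalization, 58 passed as lower, beside 11.1% of all genes, with medians of -0.34 and -0.02. Without sham replicate 2, the array that lowered the count most, 56 genes passed.

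**Figure D2:**
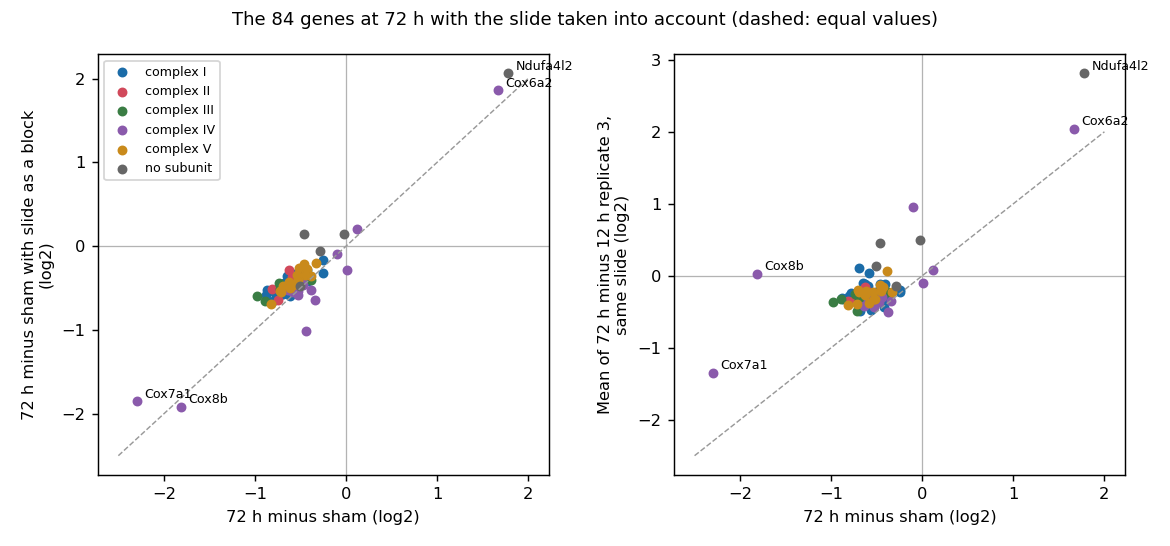
For each of the 84 genes, the log2 change at 72 h against sham (x axis) beside the change fitted with slide as a block (left) and the difference between the 72 h mean and the 12 h array on the same slide (right, log2); the dashed line marks equal values. Most genes lay below 0 on both axes, and 73 of 84 were below 0 in the right panel, a count not made over all genes.

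Complex I, which oxidises NADH, had 33 of 35 subunits lower at 72 h, with a median of -0.58 and values from -0.88 to -0.25. Ndufa2 and Ndufa7 did not pass, with -0.25 for each and adjusted p of 0.0821 and 0.131. The largest fall was in Ndufb10, an accessory subunit of the membrane arm. Its level was 6.20, 6.30 and 6.32 in sham and 6.59, 6.50 and 6.34 at 3 h, then 5.92, 6.10 and 5.71 at 12 h and 5.19, 5.51 and 5.49 at 72 h. All 72 h arrays lay below all others, and the change at 72 h was -0.88 (SE 0.13, adjusted p = 0.00184). Ndufs1, which carries iron-sulphur clusters of the electron path, fell by 0.87 on the log2 scale (SE 0.15, adjusted p = 0.00315), and Ndufa5, an accessory subunit of the peripheral arm, fell by 0.80 (SE 0.12, adjusted p = 0.00135).

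Core subunits of complex I hold the NADH site, the clusters and the quinone site, and those named here changed by similar amounts. At 72 h, Ndufv1, which binds NADH and flavin, was at -0.78, Ndufs7 at -0.69, Ndufs8 at -0.60, Ndufs3 at -0.59 and Ndufv2 at -0.55, and all of these passed. Ndufs7, which holds the cluster next to the quinone site, had an earlier course than the others. It was at 5.57, 5.64 and 5.53 in sham and 5.65, 5.61 and 5.47 at 3 h, then 4.82, 5.07 and 4.78 at 12 h and 4.66, 4.96 and 5.04 at 72 h. Its 12 h and 72 h arrays overlapped and lay below all sham arrays, with a change of -0.69 at 12 h (SE 0.13, adjusted p = 0.0039) and of -0.69 at 72 h (adjusted p = 0.00457).

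Complex II, succinate dehydrogenase, also serves the tricarboxylic acid cycle, and all 4 of its subunits fell at 72 h, with a median of -0.69. Sdhb, the iron-sulphur subunit whose promoter is shown above, was at 6.53, 6.53 and 6.42 in sham and 6.68, 6.64 and 6.61 at 3 h, then 6.15, 6.23 and 6.08 at 12 h and 5.58, 5.82 and 5.82 at 72 h. No 12 h or 72 h array overlapped with sham. Sdhb changed by -0.34 at 12 h (SE 0.10, adjusted p = 0.0406) and by -0.75 at 72 h (SE 0.10, adjusted p = 0.000993). With the slide as a block, the limma calls were lost at 12 h (-0.30, adjusted p = 0.0988) and at 72 h (-0.64, adjusted p = 0.1). The call at 12 h was also lost without any 1 array other than sham replicate 3 or 72 h replicate 1 (adjusted p from 0.0504 to 0.119). The membrane anchors Sdhc and Sdhd were at -0.81 and -0.63 at 72 h, and the flavoprotein Sdha, which oxidises succinate, was at -0.59.

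Complex III, which passes electrons from ubiquinol to cytochrome c, had all 8 subunits lower at 72 h, with a median of -0.71 and values from -0.98 to -0.38. Uqcrfs1, the Rieske iron-sulphur protein, had the largest change. Its probe maps to chr13:30632363-30632422 on mm9, on the minus strand. On the sham arrays it was at 6.06, 5.97 and 5.89, at 3 h at 6.26, 6.30 and 6.14, at 12 h at 5.69, 5.81 and 5.36 and at 72 h at 4.72, 5.16 and 5.10. The 72 h arrays lay below all others, and Uqcrfs1 fell by 0.98 on the log2 scale (SE 0.15, adjusted p = 0.00189). The core proteins Uqcrc1 and Uqcrc2 fell by 0.89 and 0.74. Uqcrh, the hinge protein, showed the smallest change, at -0.38 (adjusted p = 0.043).

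Complex V, the ATP synthase, had 14 of 15 subunits lower at 72 h, with a median of -0.54 and values from -0.82 to -0.33. Atp5l did not pass, at -0.33 with an adjusted p of 0.0579. The 3 genes Atp5g1, Atp5g2 and Atp5g3 encode the same mature c subunit, which forms the rotating ring. Atp5g1 was at 6.66, 6.86 and 6.85 in sham and 7.06, 6.92 and 6.81 at 3 h, then 6.39, 6.64 and 6.39 at 12 h and 5.77, 6.04 and 6.11 at 72 h. Its 72 h arrays lay below all other arrays, and it fell by 0.82 (SE 0.13, adjusted p = 0.00229), whereas Atp5g3 was at -0.58 and Atp5g2 at -0.39. Dimmer probes of Atp5g1 were at -0.95 and -0.41 at 72 h, and the difference between these genes was not tested. Atp5g2 was at -0.44 at 12 h (adjusted p = 0.0178), when Atp5g1 and Atp5g3 did not pass with -0.32 and -0.12. In the catalytic head, Atp5a1 (α subunit) was at -0.62, Atp5b (β) at -0.45, Atp5c1 (γ) at -0.46 and Atp5d (δ) at -0.71 at 72 h. Atp5k, a small membrane subunit, was at -0.72.

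Complex IV, cytochrome c oxidase, was the most mixed, with 11 of 17 subunits lower, 1 higher and 5 not past the threshold at 72 h, and a median of -0.47. Apart from Ndufa4, its widely expressed subunits followed the other complexes. At 72 h, Cox5a was at -0.64, Cox6b1 at -0.61, Cox7a2 at -0.60, Cox4i1 at -0.58, Cox7c and Cox8a at -0.53, Cox6a1 and Cox7b at -0.47 and Cox6c at -0.38, and all of these passed. The subunits that did not pass were Ndufa4, Cox4i2, Cox6b2, Cox7b2 and Cox8c, and among them only Cox8c was not well above background on any array. Ndufa4 was at 3.84, 3.99 and 4.28 in sham and 4.55, 4.41 and 4.35 at 3 h, then 4.10, 4.23 and 4.08 at 12 h and 4.11, 4.11 and 4.26 at 72 h. Its 72 h arrays lay within the range of sham, with a difference of 0.12 (SE 0.13, adjusted p = 0.543).

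**Figure D3:**
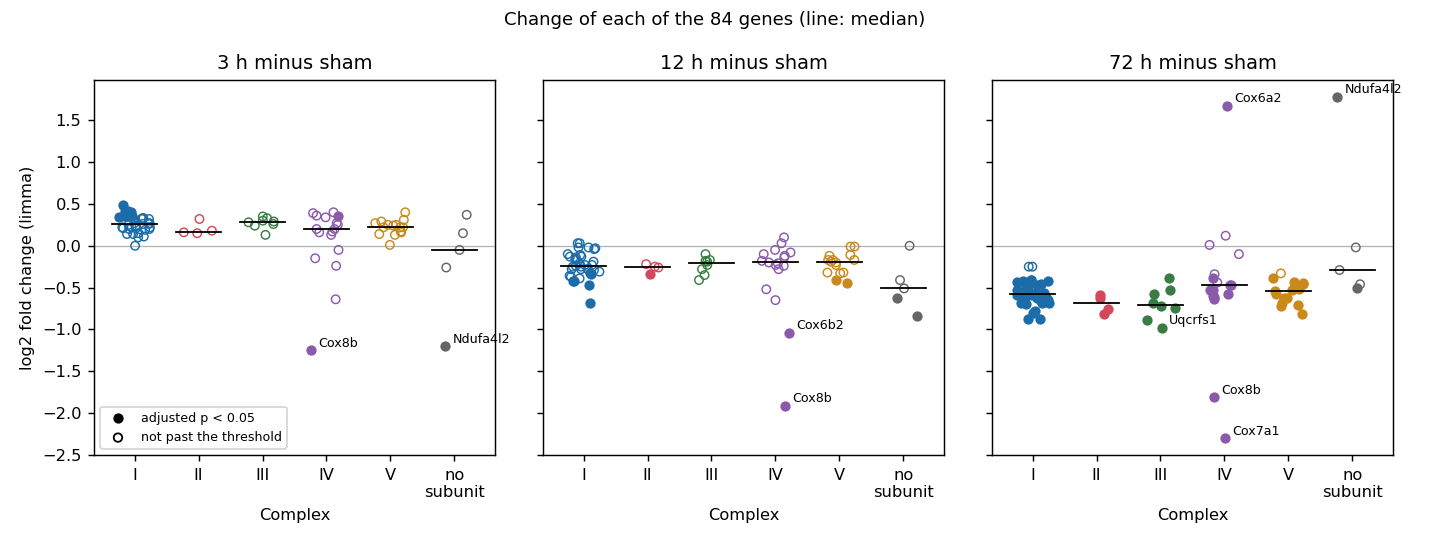
Log2 fold change of each of the 84 genes against sham, by complex, with a panel per time; filled points passed at an adjusted p below 0.05 and lines are medians. Genes of complexes I, II, III and V formed a narrow band at each time, between -0.98 and -0.25 at 72 h, whereas complex IV held both Cox7a1 at -2.30 and Cox6a2 at 1.67.

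Forms of complex IV subunits known from muscle and fat had the largest changes within the complex at 72 h. Cox7a1, the form of heart, skeletal muscle and brown fat, had the largest change of the 84 genes. Its probe maps to chr7:30970337-30970948 on mm9, on the plus strand. It was at 5.65, 5.63 and 5.45 in sham and 6.00, 6.07 and 5.84 at 3 h, then 4.83, 5.33 and 4.63 at 12 h and 2.78, 3.36 and 3.68 at 72 h. The 72 h arrays did not overlap with any other group, and Cox7a1 was 4.93-fold lower than in sham (log2 change -2.30, SE 0.23, adjusted p = 0.000198). At 3 h and 12 h it did not pass, with 0.39 and -0.65. With the slide as a block it still passed at 72 h, at -1.85 (SE 0.40, adjusted p = 0.0457). Its counterpart Cox7a2 was at 0.25, -0.18 and -0.60 at the 3 times.

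Cox8b, a form of muscle and brown fat, fell early. Its probe maps to chr7:148084852-148084911 on mm9, on the minus strand. The level was -1.60, -1.52 and -1.89 in sham and -3.52, -2.52 and -2.71 at 3 h, then -3.85, -3.38 and -3.50 at 12 h and -3.32, -3.55 and -3.55 at 72 h. All cauterized arrays lay below all sham arrays. Cox8b changed by -1.25 at 3 h (SE 0.24, adjusted p = 0.00618), -1.91 at 12 h (adjusted p = 0.000491) and -1.81 at 72 h (adjusted p = 0.000923). With the slide as a block, the change at 72 h was -1.92 with an adjusted p of 0.0609. The size depended on the processing. Over up to 29 alternatives, Cox8b ranged from -1.45 to -0.52 at 3 h, from -2.02 to -0.91 at 12 h and from -1.92 to -0.95 at 72 h. Its common form Cox8a was at 0.16, -0.23 and -0.53.

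Cox6a2, the form of heart and skeletal muscle, was dim and variable. Its probe maps to chr7:135349160-135349219 on mm9, on the minus strand. It was at -3.85, -4.48 and -3.67 in sham and -5.12, -4.21 and -4.59 at 3 h, then -4.27, -4.09 and -4.36 at 12 h and -1.46, -1.97 and -3.54 at 72 h. The 72 h arrays lay above all sham arrays, but replicate 3 lay close to them. Cox6a2 was 1.67 higher at 72 h (SE 0.46, adjusted p = 0.0295), and the call was lost without 72 h replicate 1 (1.24, adjusted p = 0.0964), 72 h replicate 2 (1.5, 0.0929), sham replicate 1 (1.75, 0.0645) or sham replicate 2 (1.43, 0.104), and with the slide as a block (1.86, 0.268). Cox6a1, the common form, was at -0.47.

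Cox6b2, known from testis, passed as lower at 12 h alone among the 3 times. It was at -0.42, -0.29 and -0.33 in sham and -0.72, -0.46 and -0.59 at 3 h, then -1.45, -1.31 and -1.39 at 12 h and -0.46, -0.37 and -0.51 at 72 h. The 12 h arrays lay below all others, with a change of -1.04 (SE 0.10, adjusted p = 0.000126) that was -1.03 with the slide as a block (adjusted p = 0.00062). The 3 h arrays also lay below all sham arrays, but the difference of -0.24 did not pass (adjusted p = 0.13). At 72 h the difference was -0.10 (adjusted p = 0.523). Cox4i2, a form known from lung and from low oxygen, did not pass at any time, with -0.15, -0.08 and 0.01, and its 72 h arrays at -1.34, -1.40 and -1.33 overlapped with sham at -1.35, -1.36 and -1.39.

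Ndufa4l2, a relative of Ndufa4 that hypoxia-inducible factor is known to induce, first fell and then rose. Its probe maps to chr10:126954149-126954208 on mm9, on the plus strand. It was at -1.82, -1.90 and -2.08 in sham and -3.04, -2.82 and -3.52 at 3 h, then -2.75, -2.61 and -2.96 at 12 h and -0.02, -0.77 and 0.33 at 72 h. The 3 h and 12 h arrays lay below and the 72 h arrays above all sham arrays. The changes were -1.2 at 3 h (SE 0.27, adjusted p = 0.012), -0.84 at 12 h (adjusted p = 0.0475) and 1.78 at 72 h (adjusted p = 0.00159), and with the slide as a block that at 72 h was 2.06 (adjusted p = 0.0614). The call at 12 h was lost with the slide as a block (-0.75, adjusted p = 0.125) and without any 1 of the sham or 12 h arrays, with adjusted p from 0.0678 (sham replicate 3) to 0.136 (sham replicate 1), and without 3 h replicate 1 or 2 or 72 h replicate 1 (0.0514 to 0.0613). Over up to 29 alternatives, Ndufa4l2 ranged from -1.35 to -0.47 at 3 h, from -0.92 to -0.34 at 12 h and from 0.83 to 2.1 at 72 h. The other names that are no subunit had small changes. Atp5sl, named Dmac2 in RefSeq, fell by 0.63 at 12 h and by 0.51 at 72 h, and Cox7a2l, known for joining complexes into supercomplexes, was at -0.41 at 12 h (adjusted p = 0.0521) and at -0.02 at 72 h.

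In 6 pairs of related genes, the difference between both genes was compared with sham at each time by a two-sided exact permutation test over arrays. With 3 arrays against 3 the smallest p is 0.1, which 14 of the 18 tests reached, and their adjusted p was 0.129, so no pair could pass. At 72 h, the change of Cox7a2 exceeded that of Cox7a1 by 1.70, that of Cox6a2 exceeded that of Cox6a1 by 2.15, and that of Ndufa4l2 exceeded that of Ndufa4 by 1.66 on the log2 scale. The change of Cox8b was below that of Cox8a by a log2 difference of -1.41 at 3 h, -1.69 at 12 h and -1.27 at 72 h. Cox6b2 differed from Cox6b1 by -0.76 at 12 h and by 0.51 at 72 h, and Cox4i2 differed from Cox4i1 by 0.12 and by 0.59. The 60-base probes of the pairs shared at most 22 identical positions in any ungapped alignment.

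**Figure D4:**
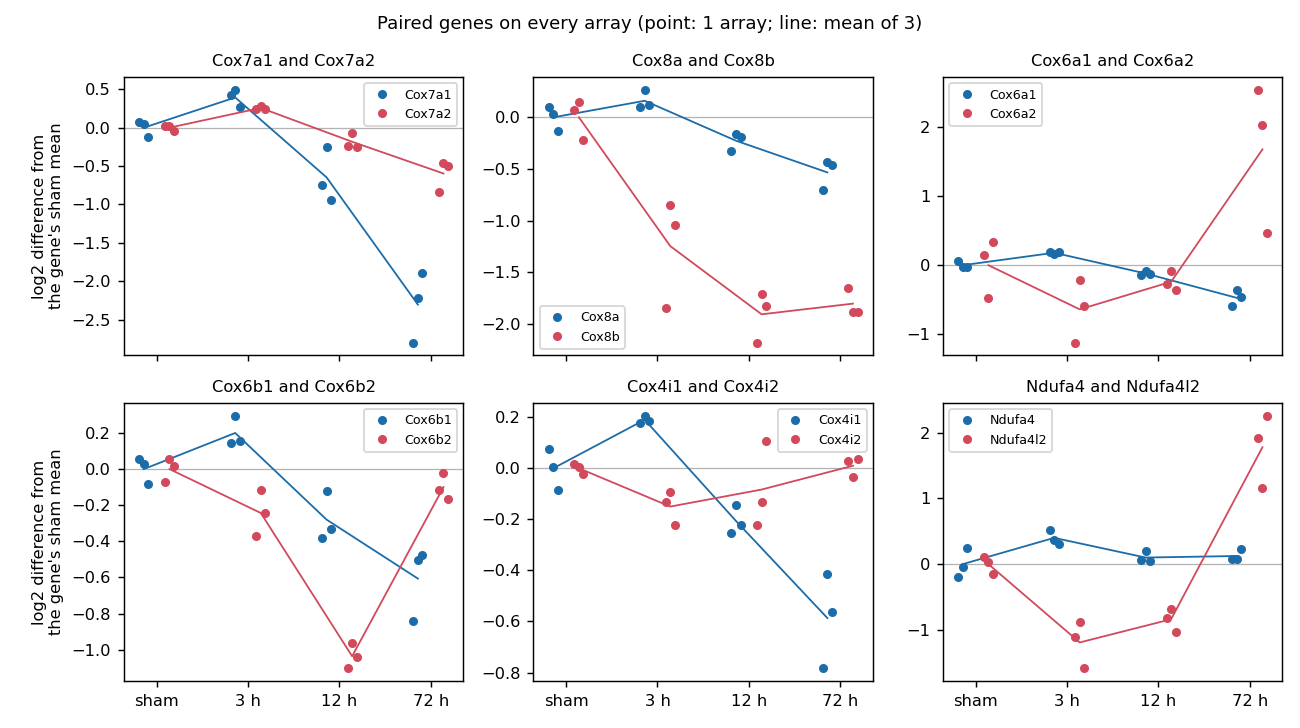
Log2 difference from the sham mean of each gene, on every array, for the 6 pairs; points are arrays and lines join the means of 3. Cox7a1 ended lower than Cox7a2 on all 72 h arrays, Cox8b lay below Cox8a on all cauterized arrays, and Ndufa4l2 crossed from below to above Ndufa4.

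At 3 h, few chain genes differed from sham past the threshold. Most of these belonged to complex I, which holds 35 of the 84 genes. In the limma fit, 10 of 84 genes passed as higher and 2, Cox8b and Ndufa4l2, as lower, beside 8.46% and 10.2% of all genes (13.1% and 14.6% of the genes well above background on all 12 arrays), so the share of members called was near the background, and with quantile normalization 1 passed as higher and 3 as lower, with 42 of 84 below sham and a median of 0.00. The same 2 genes were past 2-fold, beside 7.45% of all genes. Of the 10, 9 belong to complex I, namely Ndufb4, Ndufb6, Ndufb2, Ndufb5, Ndufb9, Ndufs4, Ndufs5, Ndufa2 and Ndufa7, and the other is Cox7b of complex IV at 0.35. Ndufb4, an accessory subunit of the membrane arm, had the largest rise. It was at 5.42 on each of the 3 sham arrays, at 5.91, 5.95 and 5.87 at 3 h, at 5.39, 5.52 and 5.30 at 12 h and at 4.88, 5.06 and 5.01 at 72 h. The 3 h arrays lay above and the 72 h arrays below all sham arrays, with changes of 0.49 (SE 0.10, adjusted p = 0.00654) and -0.43 (adjusted p = 0.0107). Ndufb6 and Ndufb2 were each at 0.42. The count fell to 1 without sham replicate 2, 3 h replicate 1 or 3 h replicate 2, to 2 without sham replicate 1 or 3, to 4 without 3 h replicate 3 or 72 h replicate 2, to 5 without 12 h replicate 1 or 2 and to 6 without 72 h replicate 3. Complexes II, III and V had 0 genes past the threshold at 3 h, with medians of 0.17, 0.29 and 0.22, while 37 members were higher at an unadjusted p below 0.05. The median of complex I was 0.26, which was not above that of complex III. These counts use the brightest probe. Dimmer probes of Ndufs1 (-0.84, adjusted p = 0.0189), Ndufv2 (-1.03, 0.045) and Atp5j2 (-0.67, 0.00997) passed as lower at 3 h. Their brightest probes were at 0.20, 0.33 and 0.27. Of the 121 probes of members well above background on all 12 arrays, which include these, 12 passed as higher.

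At 12 h, 13 of 84 genes passed as lower and 0 as higher, beside 13.2% and 8.4% of all genes, or 19.3% and 12.6% of the genes well above background on all 12 arrays. At an unadjusted p below 0.05, 29 were lower and 0 higher. Cox8b and Cox6b2 were past 2-fold, beside 9.27% of all genes. The other members that passed as lower were Ndufs7, Ndufv3, Ndufa5, Ndufc2, Ndufa3 and Ndufb3 of complex I, Sdhb, Atp5g2 and Atp5d, and of the names that are no subunit Ndufa4l2 and Atp5sl. Ndufv3 was at -0.47, Ndufa5 and Ndufc2 at -0.42 and Atp5d at -0.41. With the slide as a block, Ndufs7, Cox8b, Cox6b2, Atp5g2 and Atp5sl still passed and the other 8 did not. On its brightest probes, complex III had 0 genes past the threshold, with a median of -0.21. A dimmer probe of Uqcrb, well above background on all 12 arrays, passed as lower at -0.99 (adjusted p = 0.00622). The other probes of Uqcrb were at -0.23 and -0.22. Of the 121 probes of members well above background on all 12 arrays, 23 passed as lower. The count of 13 genes became 39 with quantile normalization and 4 on slide 1 alone, where the median was -0.18. It was 6 without sham replicate 1, 4 without sham replicate 2 or 12 h replicate 1 and 5 without 12 h replicate 3.

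Many chain genes also fell between successive times. In the reported fit more passed in the earlier step, but without scaling or at an adjusted p below 0.01 fewer did than in the later step. From 3 h to 12 h, 51 of 84 genes fell and 0 rose, beside 5.38% and 3.71% of all genes (8.47% and 5.43% of those well above background on all 12 arrays), with a median of -0.47, and at an unadjusted p below 0.05 there were 79 and 0. From 12 h to 72 h, 38 fell and 3 rose, beside 9.13% and 9.06% of all genes (13.5% and 13.2% of those well above background). The median was -0.35, and 43 did not pass. Values were positive in 11 of 84 genes, beside 14100 of all 37074 genes. The 3 that passed as higher were Cox6a2, Cox6b2 and Ndufa4l2. Complex III had 7 of 8 genes lower in each step, and complex I had 27 of 35 in the earlier and 14 of 35 in the later step. On slide 1 alone, 3 genes passed in the earlier step, and with the slide as a block 8 passed as lower in the earlier step, and in the later step 0 passed as lower and 2 as higher. The earlier count was 33 without sham replicate 2, 28 without 3 h replicate 3, 12 without 3 h replicate 1 or 12 h replicate 1 and 8 without 3 h replicate 2 or 12 h replicate 3. The later was 24 without sham replicate 2, 23 without 3 h replicate 2 or 72 h replicate 2, 11 without 12 h replicate 1, 4 without 12 h replicate 2 and 5 without 72 h replicate 1.

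Genes that work with the chain were read from lists, beside 13.3% of all genes lower at 72 h and 13.2% at 12 h. Of 13 subunits encoded in mitochondrial DNA, 11 were measured (ATP6 and COX3 were not analysed here), and 7 of them were lower at 72 h and 0 higher, with a median of -0.45. COX1, the catalytic subunit of complex IV, fell at each time, at -0.43 (adjusted p = 0.0386), -0.57 (adjusted p = 0.00924) and -1.28 (adjusted p = 0.000146). ND2 and ND5 of complex I were at -0.64 and -0.63 at 72 h. Of 12 carriers and further subunits, 8 were lower at 72 h and 0 higher, with a median of -0.67. Among them, Cyc1, the cytochrome c1 of complex III, was at -0.88, Cycs, cytochrome c, at -0.87 and Etfb, a carrier of electrons from fatty acid oxidation, at -0.84. Of 39 assembly factors, 29 were lower at 72 h and 0 higher, with a median of -0.53, and 15 were lower already at 12 h. Ndufaf3, needed to build complex I, was at -1.28 at 12 h (adjusted p = 0.000167), and Cox10 and Cox11, needed for the heme and copper of complex IV, were at -1.05 and -1.06 at 72 h. With the slide as a block, which left 1.66% of all genes lower at 72 h, 1 gene of the mitochondrial DNA passed as lower and 0 carriers and 0 assembly factors did, with medians of -0.67, -0.34 and -0.37, and 10 assembly factors were lower at 12 h.

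Most listed genes of the pathways that feed the chain were lower at 72 h. Of 13 genes of the tricarboxylic acid cycle, 12 passed as lower at 72 h and 0 as higher, with a median of -0.75, and among them Cs (citrate synthase) was at -0.93 and Suclg1 at -0.85. Of 12 genes of fatty acid oxidation, 10 were lower at 72 h and 8 at 12 h, with medians of -0.77 and -0.63 and 0 higher at either time. Slc25a20, which carries acylcarnitine into the matrix, was at -1.38 at 72 h, and Hadh and Acads, which oxidise short and medium chains, were each at -1.16. At 72 h, 0 genes of either list passed with the slide as a block, with medians of -0.43 and -0.45, and at 12 h 4 genes of fatty acid oxidation were lower and 1 was higher. Of 3 uncoupling proteins, 0 passed at any time, and Ucp1 was well above background on 0 arrays.

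Regulators of mitochondrial gene expression differed among themselves. Of 14 measured, 8 were lower and 1 higher at 72 h. Ppargc1a, a coactivator that drives mitochondrial biogenesis, was at -0.96 at 3 h, -1.74 at 12 h (adjusted p = 0.000261) and -0.90 at 72 h, and its relative Ppargc1b was at -0.66, -1.23 and -1.34. Ppara, a receptor that drives fatty acid oxidation, was at -1.45, -1.70 and -1.13. These 3 genes passed at all 3 times. Pprc1, another relative of Ppargc1a, rose by 1.31 at 3 h (adjusted p = 0.000838) and was at 0.73 at 12 h and 0.61 at 72 h, passing each time. Nrf1 and Gabpa, whose motifs were searched above, did not pass, with 0.07 for each at 72 h, while Esrra was at -0.66 and Tfam, which packages mitochondrial DNA and helps to start its transcription, at -0.48. Polrmt, the RNA polymerase of mitochondria, was at -0.70 at 12 h (adjusted p = 0.00596) and -0.66 at 72 h (adjusted p = 0.00963). At 72 h, 0 regulators passed with the slide as a block.

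**Figure D5:**
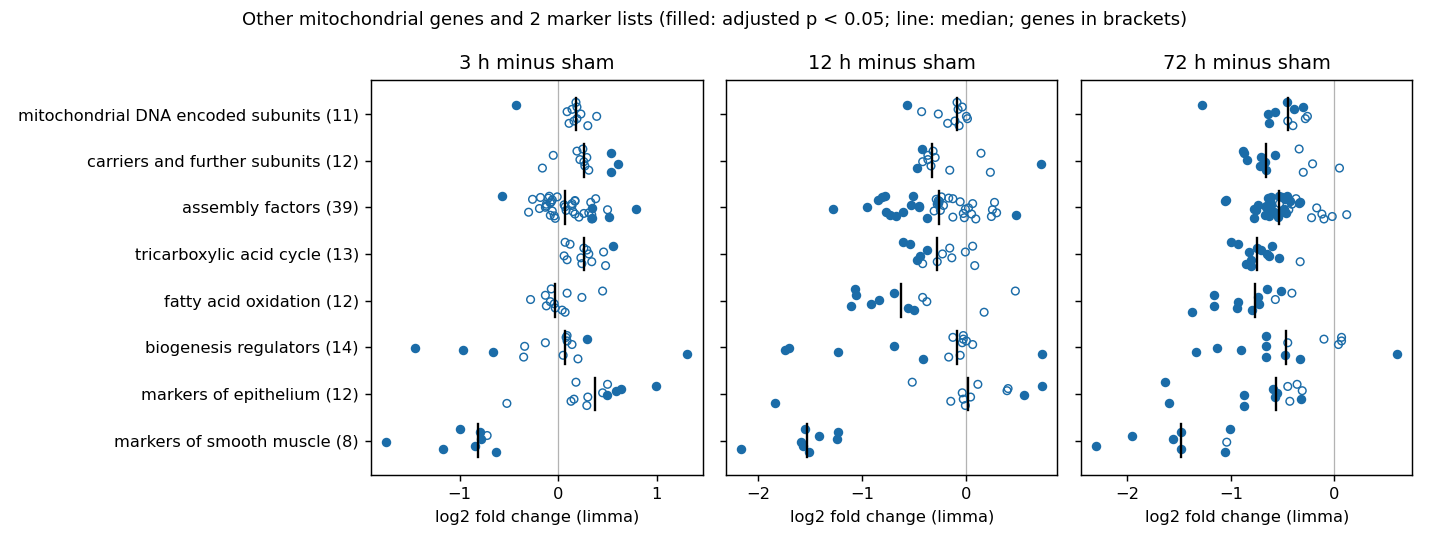
Log2 fold change against sham of the genes of 6 mitochondrial lists and of markers of epithelium and smooth muscle (x axis), with a panel per time, filled points for an adjusted p below 0.05 and lines for medians. Mitochondrial lists had medians between -0.77 and -0.45 at 72 h, smooth muscle markers lay lower, and Pprc1 is the point to the right among the regulators.

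Markers of cell types changed over the same times. Of 12 epithelial markers, 8 were lower at 72 h and 0 higher, with a median of -0.56, after 4 had passed as higher at 3 h (median 0.37). The log2 of their summed level was between 10.58 and 10.66 in sham and 10.87 and 10.93 at 3 h, then 10.48 and 10.73 at 12 h and 9.62 and 10.05 at 72 h. Of 8 smooth muscle markers, 7 were lower at 3 h (median -0.82), all 8 at 12 h (-1.53) and 7 at 72 h (-1.48), and their summed level was between 8.56 and 8.69 in sham and 7.67 and 7.96 at 3 h, then 6.88 and 7.56 at 12 h and 7.13 and 7.51 at 72 h. Of 9 neutrophil markers, 8 passed as higher at 3 h, 8 at 12 h and 6 at 72 h, and 1, Csf3r, as lower at 3 h (-0.46, adjusted p = 0.0296) and 72 h (-0.41, adjusted p = 0.0449). Their summed level, most of which was Csf3r in sham, lay from 5.82 to 6.01 in sham and from 9.14 to 9.20 at 12 h. Of 7 fibroblast markers, 1 was lower at 3 h and 5 at 12 h (median -1.24), and of 5 mesothelium markers 2 were lower at each of these times and 2 higher at 72 h. All 7 macrophage markers and 6 of 7 fibroblast markers were higher at 72 h, with summed levels of 6.01 to 6.21 and 8.20 to 9.38 against 4.42 to 4.49 and 6.85 to 7.0 in sham. A fit with the slide as a block had 0 epithelial, 8 smooth muscle, 5 macrophage and 1 fibroblast markers passing in these directions at 72 h. The part of these shifts in the changes of the chain genes was not tested.

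Skeletal muscle and fat markers stood beside the changes of Cox7a1, Cox8b and Cox6a2. Of 10 skeletal muscle markers, 2 were lower and 1 higher at 3 h (median -0.18). At 12 h, 4 were lower and 1 higher (-0.41), and at 72 h 3 were lower and 0 higher (-0.35). Their summed level was 1.61 to 1.79 in sham, 1.14 to 1.59 at 3 h, 1.19 to 1.59 at 12 h and 1.2 to 1.57 at 72 h. Ckm, the muscle creatine kinase, was at -3.00 at 72 h (adjusted p = 8.73e-05), while Myh1 was well above background on 0 arrays. Fat cell markers spread widely, with a summed level of 4.04 to 5.10 in sham, 3.00 to 3.79 at 3 h, 2.30 to 3.42 at 12 h and 2.58 to 7.45 at 72 h, and 1 of 7, Lipe at 3 h, passed at any time. Of 4 brown fat markers, 1 was lower and 1 higher at 72 h. Of the same 4, 1 was well above background on all 12 arrays, and Ucp1 and Elovl3 were so on 0 arrays. The part of muscle and fat cells in the changes of Cox7a1, Cox8b and Cox6a2 was not tested.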

How the data were processed

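Cecal RNA of 12 mice was labelled with Cy3 and read on 1-colour Agilent whole-genome arrays. The authors deposited the scanner output of Agilent Feature Extraction 11.5.1.1, with background-corrected intensity per spot on a linear scale and not normalized between arrays, and flags for outliers, saturation and signal above background. A second deposited table, made by the authors in GeneSpring, holds log2 intensity after scaling by percentile and, as its values show, centring on row medians, and served as an alternative. Scanner files give probe positions on mm9. Exons were not assigned, since no genome of that build was used. Names follow the array design, and 81 of 84 members were matched to RefSeq by accession and 3 by symbol.

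Control spots and outlier spots (53 to 152 per array) were left out, except that 98 values for which every spot was flagged were kept. Spots of a probe were averaged as log2 of the processed intensity, and the 75th percentile of the 59305 non-control spots of each array was subtracted. Groups came from the sample labels. The 4 group means were estimated from the 12 arrays together in limma 3.58.1 in R 4.3.3 (lmFit, eBayes), with Benjamini-Hochberg adjustment over 56605 probes. Each gene was represented by its probe of highest mean. Calls were an adjusted p below 0.05 and, after the methods, also a fold change above 2. Nothing in the sources states how the mice of a group were related, so p-values measure the spread between 3 arrays per group, whose number limits the precision. Fits were tested on simulated data. Probes and promoters were read with Python 3.11.15, and the motifs were searched on both strands in 250 bases.

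Members, pairs, motifs and lists were chosen with earlier results of these data known. Named with values were core subunits, paired forms, the 3 members per complex that changed most at each time among those passing, members past 2-fold, members against their complex, members near background, and up to 3 passing genes per list. A few further genes were named after their values were seen. Alternatives covered scaling, background correction, dim and outlier spots, slide and replicate as blocks, the test, probe choice, thresholds and leaving out each array. Scaling to the 75th percentile over probes, no scaling, centring on the median of bright probes, slide 1 alone and the slide as a block for the lists were added after the data were seen. Results for 2 genes of these lists are not reported here.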

Additional observations from a re-analysis of the deposited data

Results flagged for a closer look

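The step between successive times differed from 0 by more than 2-fold, with an adjusted p below 0.05, in the following named genes, so that their changes against sham differed between the times. Cox7a1 changed by -1.04 on the log2 scale from 3 h to 12 h (SE 0.23, adjusted p = 0.0242) and by -1.66 from 12 h to 72 h (SE 0.23, adjusted p = 0.00149). Cox6a2 rose by 1.92 from 12 h to 72 h (SE 0.46, adjusted p = 0.0188), and Ndufa4l2 by 2.62 (SE 0.27, adjusted p = 0.000334). For the step from 12 h to 72 h, the array of 12 h on the same slide gave -1.35 for Cox7a1, 2.04 for Cox6a2 and 2.81 for Ndufa4l2, as the mean of 72 h minus that array. With the slide as a block, 0 of the 84 genes passed as lower in this step, so the call of Cox7a1 was lost, and 2 passed as higher.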

How the results depend on the processing

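Of 132 values of named genes, 28 changed sign under an alternative, 21 of them with quantile normalization, and 0 of these 28 were past the threshold in the reported fit. Past the threshold in that fit were 57 values, and 0 of them passed under every alternative. The alternatives include Student's paired t-test given below, which by itself left 0 calls. The median change ranged from 0.00 to 0.30 at 3 h, from -0.28 to -0.10 at 12 h and from -0.62 to -0.24 at 72 h over up to 29 alternatives. The cause of the changes below was not tested. Counts of genes higher at 12 h and higher from 3 h to 12 h were 0 throughout. The 71 genes lower at 72 h became 1 with the slide as a block and 16 without scaling. The 2 higher at 72 h became 0 with the slide as a block and 1 with the slide as a random block, with a replicate block, with sham alone or at an adjusted p below 0.01, and 1 to 2 without each array in turn. The 4 past 2-fold at 72 h became 2 with normexp, 1 with the slide as a block and 38 past 1.5-fold. The 13 lower at 12 h became 22 with the percentile over bright probes or a filter on dim probes, 39 with quantile normalization, 29 with normexp, 25 with trend and robust, 8 with the authors' table, the percentile over probes or a replicate block, 5 with the slide as a block, sham alone or centring on bright probes, and 4 without scaling, on slide 1 or at an adjusted p below 0.01. Without each array, they were 4 to 17. The 2 past 2-fold at 12 h became 0 with normexp, 1 without scaling or with centring, and 5 past 1.5-fold. The 10 higher at 3 h became 2 with the percentile over bright probes or sham alone, 1 with quantile normalization, without scaling or at an adjusted p below 0.01, 3 with a replicate block, 6 with the mean of probes, 17 with centring, 20 with the dim filter, 26 with normexp and 27 with trend and robust, and 1 to 14 without each array. The 2 lower at 3 h became 1 with normexp, the mean of probes or an adjusted p below 0.01, and past 2-fold 0 with normexp and 1 with the mean of probes, and 1 to 2 without each array. The 51 lower from 3 h to 12 h became 25 with quantile normalization, 79 with normexp, 8 with the slide as a block, 31 with a replicate block, 3 on slide 1, 2 without scaling and 1 at an adjusted p below 0.01, and 8 to 60 without each array. The 38 lower from 12 h to 72 h became 8 with quantile normalization, 62 with normexp, 0 with the slide as a block (14 at an unadjusted p below 0.05), 23 with a random block, 19 with a replicate block, and 4 without scaling or at an adjusted p below 0.01, and 4 to 33 without each array, while the 3 higher became 5 with quantile normalization. Student's paired t-test, which the methods name for comparing 2 groups but not for the arrays, was run with arrays paired by replicate number. That pairing was chosen here. The test gave 0 after adjustment in each comparison. At an unadjusted p below 0.05, it gave 58 lower at 72 h, 40 lower at 12 h and 42 higher at 3 h. Deviations from the group means had correlations of -0.40 to 0.27 between arrays with the same number, over 0.1 in 5 of 18 pairs. Between arrays with other numbers they were -0.29 to 0.38, over 0.1 in 12 of 36 pairs. With 3 arrays per group, each centred on its group mean, these ranges cannot show whether the numbers mark a pairing. Every array had 60.2% to 65.2% of its probes well above background and 0 saturated spots.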
